A study of Mus musculus with 6 samples.

Results

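Complex I, the NADH:ubiquinone oxidoreductase of mitochondria, was examined through every gene of the table whose symbol starts with Nduf, leaving out 3 symbols that hold "-ps". This gave 49 of 19739 genes. By name, 12 were core (Ndufs and Ndufv), 29 accessory (Ndufa, Ndufb and Ndufc) and 8 assembly factors (Ndufaf). The samples were 6 RNA-seq libraries of primary mammary epithelial cells from wild-type (WT) mice, purified by flow cytometry and named luminal by the submitters. All were cultured with 5% FBS, EGF, FGF2, heparin and the ROCK inhibitor Y-27632, then starved of serum for 12 hours. Over the following 24 hours in medium free of serum, 3 libraries received EFNA3 protein (ephrin-A3, a ligand of Eph receptors) at 1 µg/ml, and 3 controls received 0 µg/ml. The comparison asks what added EFNA3 does to gene expression in luminal cells. The labels do not say whether libraries of a group came from separate mice or cultures, so p-values measure the spread between these libraries only, which may be technical.

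Complex I takes electrons from NADH and passes them to ubiquinone, the first step of the respiratory chain, and pumps protons across the inner membrane as it does so. Its matrix arm carries the flavin and the iron-sulphur clusters, and its membrane arm carries the proton channels. The catalytic subunits come from nuclear and mitochondrial DNA, accessory subunits surround and stabilise them, and assembly factors help to build the enzyme without staying in it. Gene names follow these roles only in part. Ndufs4, Ndufs5, Ndufs6 and Ndufv3 carry core-type names and encode accessory subunits, and Ndufa4 is now counted as a subunit of cytochrome c oxidase.

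All values are log2 values as the authors normalised them, with 1 common distribution in the 6 libraries and a median of 8.10, so depth is unknown and a shift of all genes together could not be seen. Luminal markers (8 of 8 in the table, among them Krt8, Krt18, Epcam and Elf5) had summed levels of 16.27 to 16.37 in controls and 16.35 to 16.60 with EFNA3. Of these, 7 of 8 were higher with EFNA3, Elf5 by only 0.002, where 50.8% of all tested genes were higher. Without EFNA3 replicate 1, Krt18, Elf5 and Kit were lower (-0.012, -0.051 and -0.025) and the other luminal markers higher. Basal markers (8 of 8 in the table, 7 of them past the filter on low values) summed to 16.90 to 16.99 and 16.98 to 17.05, with 3 higher, so basal transcripts were present in cells named luminal. Fibroblast markers (5 of 6) summed to 10.75 to 10.79 and 10.63 to 10.78, although 4 of 5 were higher with EFNA3. The exception was Pdgfra, the marker of highest level in that list (control mean 10.29), with a difference of -0.22. Immune markers (3 of 6) summed to 7.33 to 7.69 and 7.35 to 7.57, with 1 higher. Endothelial and pericyte markers (5 of 5 in the table, 3 past the filter) summed to 8.75 to 8.83 and 8.87 to 8.92, with 2 higher. Adipocyte markers (4 of 5) summed to 9.98 to 10.39 and 9.65 to 10.05, with 1 higher. Their part in the results was not tested. In bulk samples fewer cells of a type and less RNA per cell cannot be told apart. EFNA3 replicate 1 stood apart by transcript length. Against the 6-library mean of each gene, its shortest transcripts (the lowest eighth, 1060 nt or less) had a median of 0.31, and its longest ones (the top eighth, 5946 nt or more) had -0.32. The other 5 libraries had -0.13 to 0.02 for the short and 0.02 to 0.12 for the long ones. Results are therefore given with and without it.

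Subunit genes stood well above assembly factor genes in level. As a log2 value per kb of the longest annotated transcript, averaged over the 3 controls, the core-named genes had a median of 9.92 (range 6.87 to 11.17). For accessory-named genes the median was 9.95 (range 3.71 to 11.26). Assembly factors had a median of 7.38 (range 6.02 to 8.56), close to the 7.52 of all tested genes. Some longest transcripts are several times the principal one, and with the longest principal transcript instead the medians were 9.98, 10.29 and 7.58, against 8.05 for all tested genes. That length was chosen after seeing the data.

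Ndufv1, the flavin and NADH binding core subunit, was among the highest of its class with a level per kb of 10.36. Lowest in that class were Ndufs6b, a paralogue of Ndufs6, at 6.87 and the accessory subunit Ndufv3 at 9.18. Ndufc2 and Ndufa7, accessory subunits of the membrane and the matrix arm, led their class over the longest transcript at 11.26 and 11.11. Over the principal transcript Ndufa4 was the highest of all members at 12.02. At the other end were Ndufb4c at 6.03 and Ndufa4l2, a paralogue of Ndufa4 known as a hypoxia target, at 3.71. Over the longest transcript Ndufaf1, which works on membrane arm intermediates, was the highest assembly factor at 8.56, above Ndufaf8 at 7.65, and Ndufaf6 was the lowest at 6.02. Ndufaf2 came next to last at 6.81 over its longest transcript of 2404 nt, but reached 8.64 over its principal transcript of 678 nt. By that length it was the highest assembly factor, just above Ndufaf1 at 8.58, and Ndufaf7 at 8.24 stood above Ndufaf8 at 7.65.

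**Figure D1:**
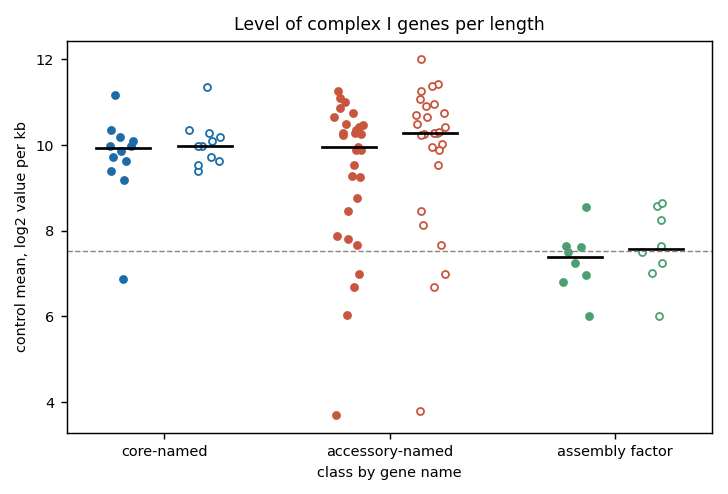
Level of each complex I gene in controls (mean of 3 libraries, log2 value per kb) by class; filled points use the longest annotated transcript and open points the longest principal transcript, bars are class medians and the dashed line is the median of all tested genes with the longest transcript. The assembly factors lie between 6.02 and 8.56 (filled), while most subunit genes lie above that range.

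Several members have close copies in the genome, and how reads shared between copies were counted is not given in the sources used here. Ndufa12 stood at 8.62, 8.34 and 7.89 in the controls and its left-out copy Ndufa12-ps at 8.99, 8.77 and 8.88. The left-out copies Ndufa12-ps, Ndufs5-ps and Ndufab1-ps differed by 0.17 (SE 0.13), 0.44 (SE 0.16) and 0.86 (SE 0.24) between groups (log2, EFNA3 minus control). Without EFNA3 replicate 1 these were 0.04, 0.36 and 0.70. Ndufb4, which has the copy Ndufb4c, had a level per kb of 7.003, under the median of its class. The values of Ndufa12, Ndufab1, Ndufb4, Ndufb4c, Ndufs5, Ndufs6 and Ndufs6b are uncertain for this reason.

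The promoters are shown because most members were higher with EFNA3, as described below. RefSeq windows (GRCm38.p6) of 250 bases before and 50 from the start site were matched by symbol for 41 of 49 genes, and the letters of factors known for respiratory genes were searched on both strands. The palindrome of NRF1 (nuclear respiratory factor 1) with its sixth base left free was found in 9 of 41 genes (22.0%), against 5.19% of 27025 genes with a window and 7.17% of the 17492 protein-coding ones. The strict palindrome, which the free form includes, was in 3 of 41, Ndufa11, Ndufaf4 and Ndufaf5 (7.32%; 1.07% of all and 1.47% of protein-coding genes). CCGGAAG, of ETS factors such as GABP, was in 6 (14.6%; 9.93% of all genes and 12.9% of protein-coding ones), and GGGCGG, of Sp1, in 21 (51.2%; 38.2% and 49.2%), both near the shares of protein-coding genes. TCAAGGTCA, of estrogen-related receptors, was in 0, against 0.466% of all and 0.377% of protein-coding genes, and its looser form TNAAGGTCA in 1, Ndufb4 (2.44%; 1.43% of all and 1.19% of protein-coding genes). The sequences below are the 120 bases before the start site of 2 core-named genes with no overlap between groups, Ndufs6 and Ndufs3, and of Ndufa11 and Ndufaf4, where the strict NRF1 letters lie before the start site. Capitals mark the NRF1 letters in Ndufs6, Ndufa11 and Ndufaf4 and the ETS letters in Ndufs3. The match in Ndufs6 is of the form with a free base and lies on the other strand, so its reverse complement is printed.
Ndufs6 (chr13:73328483-73328602, minus strand): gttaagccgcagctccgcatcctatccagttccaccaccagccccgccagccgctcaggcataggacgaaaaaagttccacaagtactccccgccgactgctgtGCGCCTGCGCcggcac
Ndufs3 (chr2:90904722-90904841, minus strand): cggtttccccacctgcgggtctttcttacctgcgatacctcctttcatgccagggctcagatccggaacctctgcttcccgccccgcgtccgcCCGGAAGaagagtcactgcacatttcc
Ndufa11 (chr17:56717642-56717761, plus strand): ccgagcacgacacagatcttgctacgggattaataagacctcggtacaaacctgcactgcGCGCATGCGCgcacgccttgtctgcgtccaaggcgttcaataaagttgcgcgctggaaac
Ndufaf4 (chr4:24897963-24898082, plus strand): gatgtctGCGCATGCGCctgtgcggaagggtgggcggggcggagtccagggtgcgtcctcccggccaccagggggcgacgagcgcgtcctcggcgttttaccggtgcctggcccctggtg

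AAGATGGC, the core of the YY1 motif, was found in 8 of 41 genes (19.5%; 3.19% of all genes and 3.57% of protein-coding ones): Ndufs4, Ndufs6, Ndufs7, Ndufa3, Ndufa9, Ndufb8, Ndufc1 and Ndufaf8. In 8 of 8 the match lay after the start site on the strand of the gene, as did 284 of the 927 matches in all windows (30.6%). The letters hold an ATG, and in 7 of the 8 this ATG was an annotated start codon in GENCODE M21, the exception being Ndufaf8. Short stretches around the match are shown for 4 of them, with the YY1 letters in capitals.
Ndufs6 (chr13:73328434-73328457, minus strand): tcaccggcAAGATGGCggcggtgc
Ndufa3 (chr7:3617387-3617410, plus strand): ccaagaacAAGATGGCcgggagta
Ndufc1 (chr3:51408918-51408941, minus strand): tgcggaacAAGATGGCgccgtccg
Ndufaf8 (chr11:120098936-120098959, plus strand): cagggcccAAGATGGCggcgccct
Counted with the start site as 1, these matches begin at bases 34, 23, 23 and 11. Genes with and without the YY1 letters had about the same median difference between groups, 0.27 and 0.27 (log2, EFNA3 minus control), and for the free form of the NRF1 letters these were 0.24 and 0.27. The 3 genes with the strict NRF1 letters, 2 of them assembly factors, had a median difference of 0.09, against 0.27 for those without. A match is a description of the sequence and not a binding site.

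With EFNA3, 48 of 49 complex I genes had a higher group mean, against 50.8% of all 16394 tested genes, and all 49 passed the filter on low values. Their median difference was 0.27 on the log2 scale (range -0.03 to 0.50), against 0.004 over all tested genes. In 21 of 49 every EFNA3 library lay above all controls, against 8.53% of all tested genes, and in 0 every EFNA3 library lay below them (7.45% of all). No member passed the limma test at an adjusted p under 0.05 (0 of 49; 0.0% of all tested genes), and the smallest limma adjusted p of a member was 0.55. At an unadjusted limma p under 0.05, 20 members were higher and 0 lower, against 3.87% and 2.86% of all tested genes.

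EFNA3 replicate 1 stood furthest from the controls. It held the highest of the 6 values in 47 of 49 genes, and averaged over the members it lay 0.55 above the control mean, against 0.11 and 0.14 for EFNA3 replicates 2 and 3 and -0.03 to 0.04 for the controls. Without it, 44 of 49 genes were higher (49.8% of all tested genes), the median difference was 0.12, and 21 genes had both remaining EFNA3 libraries above all controls (10.4% of all). In 1 gene, Ndufaf5, both lay below them (9.2% of all). At an unadjusted limma p under 0.05, 16 genes were then higher and 0 lower, against 2.41% and 2.2% of all tested genes, and 0 of 49 passed at an adjusted p under 0.05, where 0.0% of all did. The count of 20 at an unadjusted limma p under 0.05 depended on single libraries. It was 9 without control replicate 1 (2.38% of all), 6 without control replicate 2 (2.01%) and 4 without control replicate 3 (2.39%). It was 29 without EFNA3 replicate 2 (5.7%), 26 without EFNA3 replicate 3 (6.97%) and 5 with no mean-variance trend in the fit (2.96%). The count with no overlap was 33 without EFNA3 replicate 2, against 16.0% of all tested genes.

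**Figure D2:**
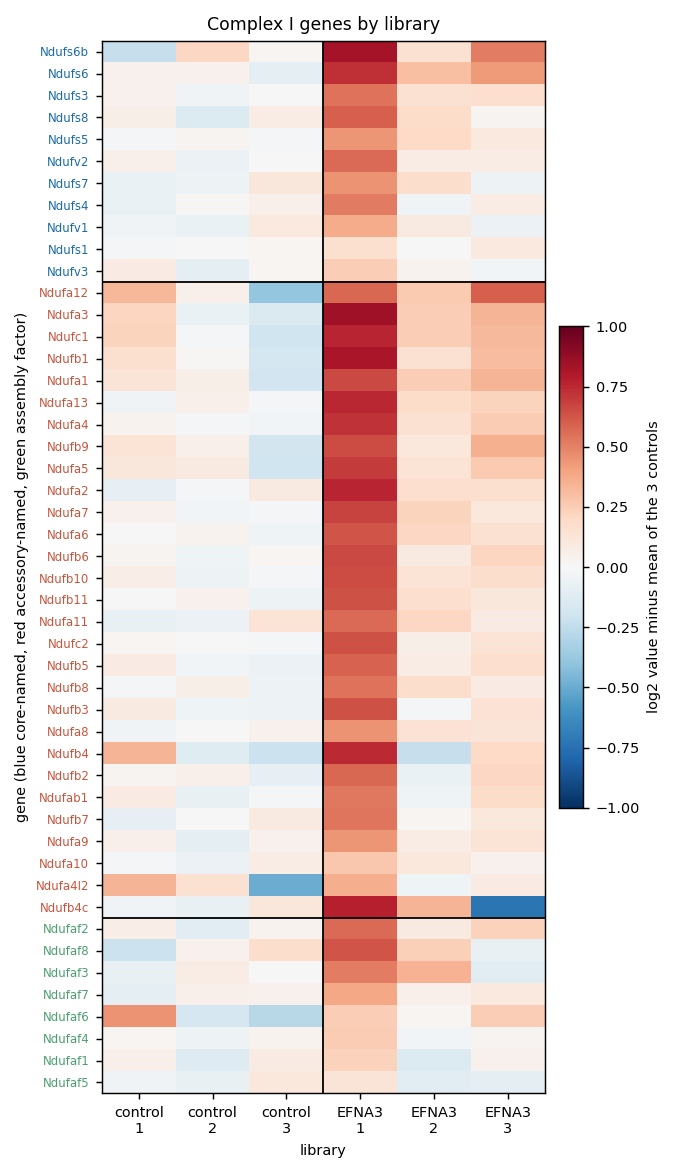
Log2 value of each complex I gene in each library minus the mean of its 3 controls; rows are genes by class, ordered by difference (1 gene is left out), and columns are libraries. EFNA3 replicate 1 is the reddest column, with the highest value in nearly all rows, and EFNA3 replicates 2 and 3 are paler.

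All 12 core-named genes were higher with EFNA3 (50.8% of all tested genes), with a median difference of 0.21, or 0.07 without EFNA3 replicate 1. In 4 of them, Ndufs3, Ndufs5, Ndufs6 and Ndufv2, the groups did not overlap (8.53% of all tested genes). Ndufs6, a zinc-binding accessory subunit of the matrix arm, is described first. Its log2 values were 9.51, 9.51 and 9.38 in the controls and 10.20, 9.77 and 9.89 in the EFNA3 libraries. Each EFNA3 library was above each control, and control replicate 3 was the lowest. The difference was 0.49 (SE 0.12), a 1.40-fold higher level with a 95% interval of 0.22 to 0.75 on the log2 scale, and 0.36 without EFNA3 replicate 1. It had the smallest unadjusted limma p of all members in both fits, with limma adjusted p = 0.55 with all libraries and 0.73 without EFNA3 replicate 1. Its paralogue Ndufs6b, the core-named gene of lowest level per kb, read 5.12, 5.56 and 5.37 in the controls and 6.18, 5.51 and 5.86 in the EFNA3 libraries. That gave 0.50 (SE 0.24) with overlapping groups, since EFNA3 replicate 2 lay below control replicate 2.

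Ndufs3, a catalytic core subunit that holds no iron-sulphur cluster, had values of 10.20, 10.13 and 10.16 in the controls and 10.71, 10.32 and 10.33 in the EFNA3 libraries. EFNA3 replicates 2 and 3 were nearly equal and above every control, and the difference was 0.29 (SE 0.11), or 0.16 without EFNA3 replicate 1. Ndufv1, of high level per kb, had a smaller difference. It measured 11.05, 11.02 and 11.18 in the controls and 11.46, 11.18 and 11.03 in the EFNA3 libraries, a difference of 0.14 (SE 0.11), and here EFNA3 replicates 2 and 3 both lay within the controls. The smallest differences of the class were those of Ndufv3 and Ndufs1. Ndufs1, the largest subunit and a carrier of iron-sulphur clusters, had 11.37, 11.39 and 11.40 in the controls and 11.55, 11.39 and 11.49 in the EFNA3 libraries, which is 0.09 (SE 0.07). Ndufv3 had 10.28, 10.10 and 10.21 in the controls and 10.44, 10.23 and 10.17 in the EFNA3 libraries, which is 0.08 (SE 0.09); without EFNA3 replicate 1 it was at 0.003. In both, EFNA3 replicate 1 was the highest library and EFNA3 replicate 2 or 3 lay within the control range. Ndufs4, Ndufs5, Ndufs7, Ndufs8 and Ndufv2 had differences from 0.18 to 0.27. Counted by role, the 7 catalytic core subunits had a median difference of 0.19, or 0.06 without EFNA3 replicate 1.

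Accessory-named genes had the highest median difference of the 3 classes, 0.31, and 29 of 29 were higher (50.8% of all tested genes). In 16 the groups did not overlap (8.53% of all tested genes). Without EFNA3 replicate 1 the median was 0.14, with 27 of 29 higher (49.8% of all) and again 16 without overlap (10.4% of all). At an unadjusted limma p under 0.05, 17 of 29 were higher (3.87% of all), and 14 without EFNA3 replicate 1 (2.41%). The count was 8, 5 and 3 without control replicates 1, 2 and 3, where 2.38%, 2.01% and 2.39% of all tested genes were called. Core-named genes gave 3 by that count and assembly factors 0. With any 1 of the controls left out, these were 1 and 0. Without EFNA3 replicate 2 the counts for accessory-named, core-named and assembly factor genes were 24, 4 and 1 (5.7% of all tested genes), and without EFNA3 replicate 3 they were 18, 6 and 2 (6.97%).

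In the membrane arm, Ndufa3, a small subunit of the proximal membrane arm, read 10.21, 9.92 and 9.85 in the controls and 10.84, 10.24 and 10.33 in the EFNA3 libraries. The groups did not overlap, though EFNA3 replicate 2 was only just above control replicate 1, and the difference was 0.48 (SE 0.16). Ndufc1, a small subunit of the same arm, read 9.01, 8.77 and 8.59 in the controls and 9.55, 9.03 and 9.11 in the EFNA3 libraries, a difference of 0.44 (SE 0.16) with the same close pair of libraries. Ndufa1, an X-linked single-pass membrane subunit, read 9.14, 9.08 and 8.83 in the controls and 9.68, 9.26 and 9.36 in the EFNA3 libraries. Its difference was 0.42 (SE 0.13), or 0.29 without EFNA3 replicate 1, with all controls below all EFNA3 libraries. Ndufa13, also known as GRIM-19, read 10.24, 10.33 and 10.26 in the controls and 11.03, 10.46 and 10.50 in the EFNA3 libraries. All EFNA3 libraries were above the controls, and the difference was 0.39 (SE 0.14), or 0.20 without EFNA3 replicate 1.

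Ndufa8 and Ndufb10 encode subunits with paired cysteine motifs that face the intermembrane space. Ndufa8 read 10.49, 10.52 and 10.57 in the controls and 10.97, 10.67 and 10.66 in the EFNA3 libraries, which is 0.24 (SE 0.10). Ndufb10 read 10.68, 10.56 and 10.60 in the controls and 11.27, 10.75 and 10.79 in the EFNA3 libraries, which is 0.32 (SE 0.13). In both, EFNA3 replicates 2 and 3 lay close together just above the highest control. Ndufb11, an X-linked subunit of the distal membrane arm, read 10.28, 10.33 and 10.23 in the controls and 10.92, 10.45 and 10.39 in the EFNA3 libraries, which is 0.31 (SE 0.13). Ndufc2, the member with the highest level per kb of the longest transcript, read 10.73, 10.71 and 10.69 in the controls and 11.35, 10.77 and 10.85 in the EFNA3 libraries. Its groups did not overlap and its difference was 0.28 (SE 0.14). By place in the enzyme, the medians were 0.28 over 9 accessory subunits of the proximal membrane arm and 0.28 over 11 of the distal one, or 0.15 and 0.13 without EFNA3 replicate 1.

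In the matrix arm, Ndufa12 had the largest difference of its class. Its values were 8.62, 8.34 and 7.89 in the controls and 8.86, 8.55 and 8.88 in the EFNA3 libraries, and the difference of 0.48 (SE 0.18) was 0.29 without control replicate 3, the lowest library. The groups overlapped, with EFNA3 replicate 2 below control replicate 1. Ndufa2, which has a thioredoxin-like fold, read 9.76, 9.84 and 9.94 in the controls and 10.61, 10.01 and 10.00 in the EFNA3 libraries. The difference was 0.36 (SE 0.15), although the nearest libraries of the groups, EFNA3 replicate 3 and control replicate 3, were 10.00 and 9.94. Ndufa6, a LYR-type subunit that binds the acyl carrier protein, read 10.66, 10.69 and 10.61 in the controls and 11.29, 10.86 and 10.80 in the EFNA3 libraries, which is 0.33 (SE 0.12). Ndufa7 read 10.51, 10.44 and 10.45 in the controls and 11.14, 10.68 and 10.57 in the EFNA3 libraries, which is 0.33 (SE 0.13). For Ndufa6 and Ndufa7 all EFNA3 libraries were above all controls. The 9 accessory subunits of the matrix arm had a median of 0.33, or 0.16 without EFNA3 replicate 1.

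Ndufa4, the cytochrome c oxidase subunit with an Nduf name, read 11.34, 11.29 and 11.28 in the controls and 12.03, 11.46 and 11.56 in the EFNA3 libraries. The controls lay close together below all EFNA3 libraries, and the difference was 0.38 (SE 0.13), or 0.20 without EFNA3 replicate 1. Its paralogue Ndufa4l2 was barely above the filter, at 4.04, 3.85 and 3.21 in the controls and 4.06, 3.66 and 3.78 in the EFNA3 libraries, and differed by 0.13 (SE 0.36) with wide overlap. Ndufb4c, next lowest to Ndufa4l2 in level per kb among accessory-named genes, read 4.63, 4.59 and 4.78 in the controls and 5.45, 5.01 and 3.94 in the EFNA3 libraries. EFNA3 held both its highest and its lowest library, a difference of 0.13 (SE 0.38). The accessory-named genes not given by library here (Ndufa10, Ndufa11, Ndufa5, Ndufa9, Ndufab1, Ndufb1, Ndufb2, Ndufb3, Ndufb4, Ndufb5, Ndufb6, Ndufb7, Ndufb8 and Ndufb9) had differences from 0.14 to 0.42, among them Ndufab1, the acyl carrier protein found in both arms, at 0.22.

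**Figure D3:**
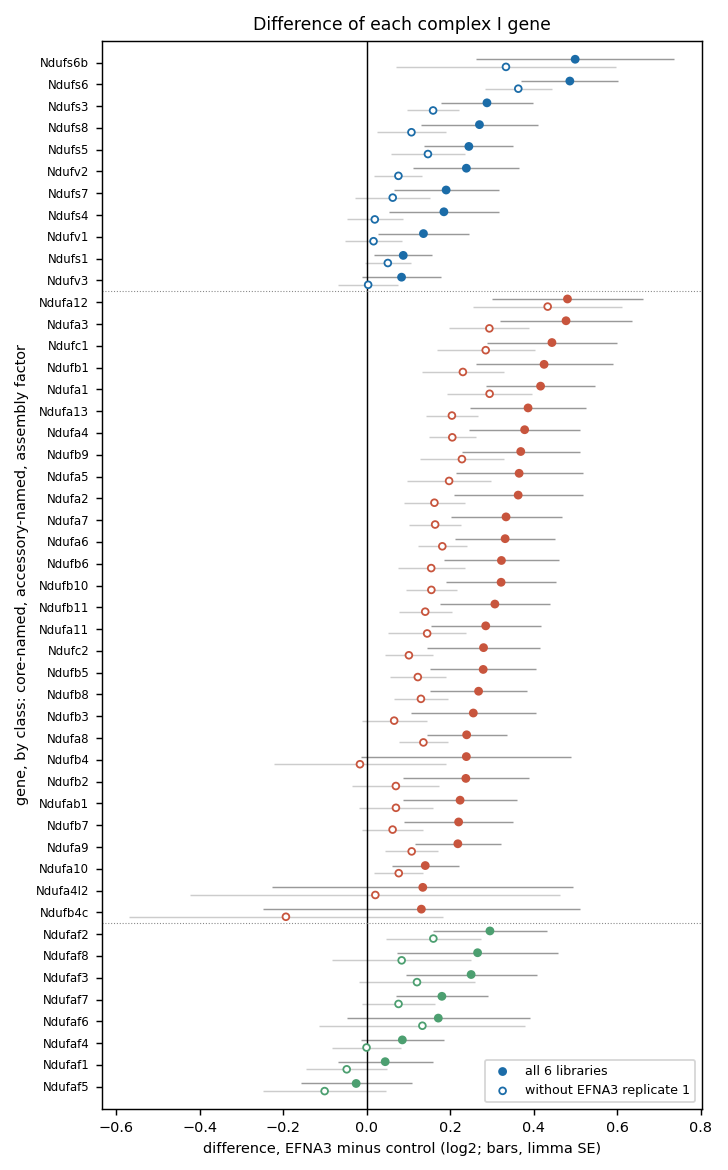
Difference between groups for each complex I gene (EFNA3 minus control, log2) by class; filled points use all 6 libraries, open points leave out EFNA3 replicate 1, and bars are limma standard errors (1 gene is left out). Filled points lie above 0 for all genes shown but Ndufaf5, and open points lie closer to 0 in most.

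Assembly factors differed least in median of the 3 classes with all libraries, at 0.18, and 7 of 8 were higher (50.8% of all tested genes). In 1 of 8 the groups did not overlap, near the 8.53% of all tested genes. Without EFNA3 replicate 1 the median was 0.08, with 5 of 8 higher (49.8% of all). Ndufaf2, a paralogue of Ndufa12 that acts late in assembly, was the gene without overlap. It read 8.15, 7.98 and 8.12 in the controls and 8.65, 8.17 and 8.31 in the EFNA3 libraries, and its difference was 0.29 (SE 0.14). Ndufaf8, a partner of Ndufaf5, read 7.08, 7.33 and 7.47 in the controls and 7.92, 7.53 and 7.22 in the EFNA3 libraries. With EFNA3 replicate 3 inside the control range, its difference was 0.27 (SE 0.19). Ndufaf3, which works on the quinone module with Ndufaf4, read 8.002, 8.14 and 8.07 in the controls and 8.58, 8.42 and 7.97 in the EFNA3 libraries, which is 0.25 (SE 0.16), and its EFNA3 replicate 3 lay below all controls.

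Ndufaf5, which hydroxylates an arginine of Ndufs7, was the only one of the 49 genes with a lower group mean in the fit of all libraries. Its values were 7.20, 7.16 and 7.34 in the controls and 7.36, 7.12 and 7.15 in the EFNA3 libraries, and EFNA3 replicates 2 and 3 were below all controls while EFNA3 replicate 1 was above them, for a difference of -0.03 (SE 0.13). Ndufaf1 read 9.17, 8.99 and 9.20 in the controls and 9.35, 8.98 and 9.16 in the EFNA3 libraries, which is 0.04 (SE 0.11) with overlap, and -0.05 without EFNA3 replicate 1. Ndufaf6 read 6.58, 5.96 and 5.85 in the controls and 6.38, 6.15 and 6.37 in the EFNA3 libraries. Here control replicate 1 was the highest library of all, so the difference of 0.17 (SE 0.22) came with overlap. Ndufaf4 and Ndufaf7, a methyltransferase, differed by 0.09 and 0.18. The 10 analysed complex I assembly factors with other names include Acad9, Ecsit, Timmdc1 and Nubpl. Their median difference was 0.06, with 8 of 10 higher (50.8% of all tested genes). Without EFNA3 replicate 1 it was 0.02, with 6 of 10 higher, near the 49.8% of all. Acad9, a flavoprotein that binds Ecsit and Ndufaf1, read 12.02, 11.90 and 11.92 in the controls and 11.90, 11.80 and 11.88 in the EFNA3 libraries. EFNA3 replicate 1 was just under the lowest control and the other EFNA3 libraries were lower, a difference of -0.09 (SE 0.07). Of these 10 only Acad9 had every EFNA3 library below all controls (7.45% of all tested genes). In 1 other every EFNA3 library lay above them (8.53% of all).

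Averaged over a class and taken against the control mean of each gene, accessory-named genes lay at 0.63, 0.12 and 0.17 in EFNA3 replicates 1, 2 and 3 and at 0.07, -0.004 and -0.07 in the controls. Core-named genes lay at 0.49, 0.12 and 0.11 with EFNA3 and -0.01, -0.02 and 0.03 without. Assembly factors lay at 0.37, 0.06 and 0.05 with EFNA3 and 0.02, -0.04 and 0.02 without. In each class the mean of each EFNA3 library was above those of all controls. The classes lay furthest apart in EFNA3 replicate 1: accessory exceeded core by 0.14 there, by 0.00 and 0.06 in EFNA3 replicates 2 and 3, and by -0.10 to 0.08 in the controls. Accessory exceeded assembly factors by 0.26, 0.06 and 0.12 with EFNA3 and by -0.09 to 0.05 in controls. Without EFNA3 replicate 1 the core-named median of 0.07 was below the assembly factor median of 0.08. A difference between classes was not tested, since genes of a class are not replicates of the treatment.

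The classes also differed in transcript length. Median longest transcripts were 1354 nt for core-named, 918 nt for accessory-named and 1483 nt for assembly factor genes, against 1082 nt over all members and 3012 nt over all tested genes. For the longest principal transcript these class medians were 1582, 763 and 1309 nt, against 977 nt over all members and 3021 nt over all tested genes with one. Across 46 members with a principal transcript, which are not independent replicates and share all libraries, the difference had a Spearman correlation of -0.66 with its length, and -0.61 without EFNA3 replicate 1. Over the 13215 tested genes with a principal transcript these were -0.55 and -0.32. When a spline in transcript length and GC share was taken out of each library, the median difference of members was 0.17, with 45 of 49 higher (54.0% of all tested genes). At an unadjusted limma p under 0.05, 14 were then higher, against 4.74%. With that correction and without EFNA3 replicate 1 the median was 0.09, with 41 of 49 higher (53.4%) and 7 at an unadjusted limma p under 0.05 (2.66%). The class medians with the correction were 0.12 for core-named, 0.22 for accessory-named and 0.11 for assembly factor genes, and 0.05, 0.09 and 0.05 without EFNA3 replicate 1 as well. The correction used the longest transcript. Across the 46 members a Spearman correlation of -0.39 with principal length remained, and -0.49 without EFNA3 replicate 1. Ndufs6 stood at 0.36 with it, and at 0.30 without EFNA3 replicate 1 too.

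**Figure D4:**
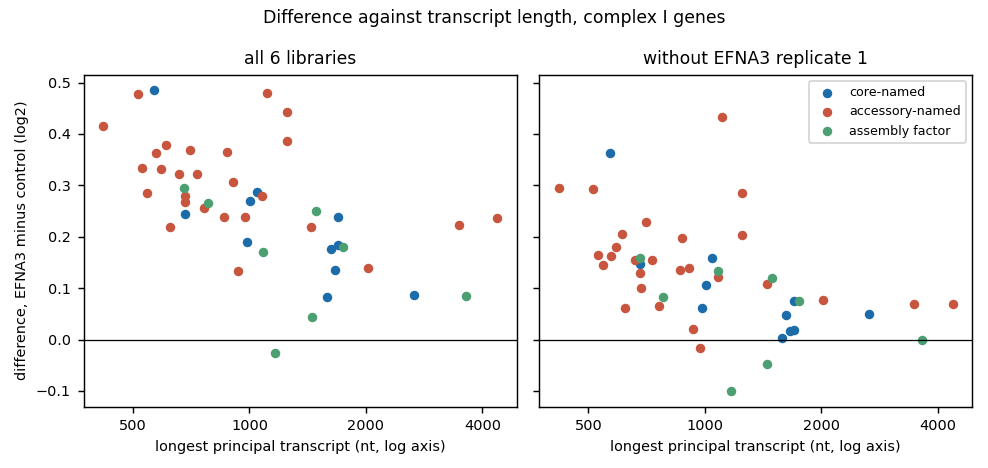
Difference between groups (EFNA3 minus control, log2) against the length of the longest principal transcript (nt, log axis) for 46 complex I genes, coloured by class, with all 6 libraries (left) and without EFNA3 replicate 1 (right). Shorter transcripts lie higher in both panels, with Spearman correlations of -0.66 and -0.61 across genes.

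The 7 complex I subunits encoded in mitochondrial DNA had a median difference of 0.02 (range -0.34 to 0.42), with 4 of 7 higher (50.8% of all tested genes). Without EFNA3 replicate 1 the median was 0.10, with 6 of 7 higher (49.8%), beside the 0.12 of the 49 nuclear members. Averaged over the list they lay at -0.09, 0.05 and 0.13 in EFNA3 replicates 1, 2 and 3 and at 0.004, 0.09 and -0.10 in the controls, so the groups overlapped. mt-Nd1, a core subunit at the base of the membrane arm, read 15.60, 15.48 and 15.48 in the controls and 15.48, 15.60 and 15.53 in the EFNA3 libraries, and mt-Nd4 differed by -0.003 (SE 0.07). mt-Nd5, the subunit at the tip of the membrane arm, read 15.82, 15.90 and 15.72 in the controls and 15.10, 15.72 and 15.72 in the EFNA3 libraries. EFNA3 replicate 1 was its lowest library, and the difference was -0.30 (SE 0.16). mt-Nd6, which lies on the opposite strand from the other mitochondrial Nd genes, read 13.81, 13.71 and 13.67 in the controls and 14.33, 13.86 and 14.04 in the EFNA3 libraries. With all libraries it was the only one of the 7 without overlap (8.53% of all tested genes had every EFNA3 library above all controls), at 0.35 (SE 0.11). Without EFNA3 replicate 1 it stood at 0.22, and mt-Nd2 also had no overlap (10.4% of all tested genes). The sources used here do not give the strand setting of the counting, so its reads and those of transcripts from the other strand cannot be told apart. Between nuclear and mitochondrial subunits the difference was not tested.

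The nuclear genes of the other respiratory complexes are given for comparison, with the same libraries. Complex II, which feeds electrons from succinate, had a median difference of 0.15 over 4 genes, and 0.03 without EFNA3 replicate 1. For complex III the median was 0.28 over 9 genes (0.12), for complex IV 0.32 over 10 (0.16), and for ATP synthase 0.24 over 14 (0.11), with the value without EFNA3 replicate 1 in parentheses. All 4 medians lay within the range of differences of complex I members, and a difference between complexes was not tested. Of 13 transcription factors and coactivators of respiratory genes, 6 were higher (50.8% of all tested genes), with a median of -0.01 (range -0.46 to 0.13). Without EFNA3 replicate 1, 4 of 13 were higher (49.8% of all). Ppargc1a, a coactivator known to drive mitochondrial genes, read 9.04, 9.10 and 8.89 in the controls and 8.37, 9.08 and 8.94 in the EFNA3 libraries, which is -0.21 (SE 0.17). Without EFNA3 replicate 1, its lowest library, the difference was -0.0008. Esrra, Nrf1, Gabpa and Yy1 differed by 0.09 (SE 0.10), 0.06 (SE 0.08), -0.07 (SE 0.09) and -0.01 (SE 0.06). Genes for import, quality control and iron-sulphur supply, among them Hspa9, Iscu and Glrx5, had a median of 0.10, with 10 of 10 higher (50.8% of all). For them the median was 0.05 without EFNA3 replicate 1, with 8 of 10 higher (49.8% of all). No gene of these lists passed the limma test at an adjusted p under 0.05.

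**Figure D5:**
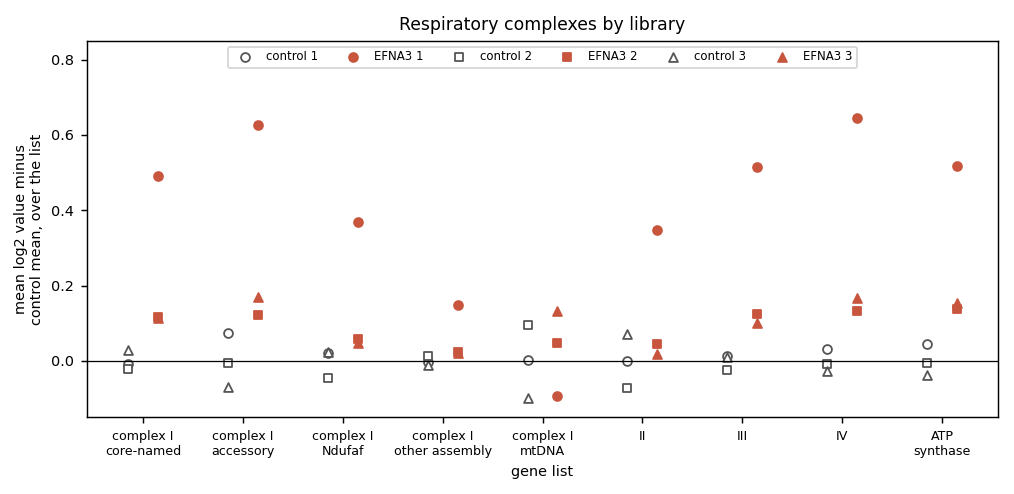
Mean log2 value of each gene list in each library minus the control mean; open grey symbols are controls, filled red symbols EFNA3 libraries, and shapes mark replicates 1, 2 and 3 (circle, square, triangle), which are not paired. EFNA3 replicate 1 is the highest library in all 8 nuclear lists shown and lies at -0.09 for the subunits encoded in mitochondrial DNA.

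Complex I genes often share a start region with a neighbour on the opposite strand. In GENCODE M21, 13 of 46 protein-coding members (28.3%) had such a head-to-head protein-coding neighbour within 1000 bases, against 9.93% of 13204 tested protein-coding genes. This was looked at after the values were seen. Of the 13 neighbours 11 were tested, and 8 of these were higher with EFNA3 (50.8% of all tested genes were). The median difference of the neighbours was 0.07, or 0.04 without EFNA3 replicate 1. With all libraries the 11 complex I genes beside them had 0.29, and in 9 of the 11 pairs the complex I gene had the larger difference. Ndufb3 stood at 0.26 and its neighbour Fam126b at -0.30 (SE 0.11). Ndufaf8 stood at 0.27 beside Tepsin at -0.14 (SE 0.09), and Ndufa4 at 0.38 beside Phf14 at 0.07 (SE 0.07). The pairs that went the other way with all libraries were Ndufaf5 with Esf1 and Ndufa7, at 0.33, with the ribosomal protein gene Rps28, at 0.57 (SE 0.20). Without EFNA3 replicate 1, Ndufaf2 at 0.16 also lay below its neighbour Ercc8 at 0.24, and Ndufv3 at 0.003 below Wdr4 at 0.017. The neighbours had a median longest transcript of 3163 nt against the 1082 nt of all members, and the part of length in these pairs was not tested.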

How the data were processed

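RNA was sequenced in 6 libraries, 3 per group. The submitters' processing notes name Trim Galore, Subread, featureCounts and build mm39, with no version or strand setting. The authors' deposited table holds log2 values (base inferred) for 19739 genes, from -0.79 to 18.1. Its sorted columns differ by at most 0.0030, so as deposited the libraries share 1 distribution; the step behind this is not stated in the sources used here. Columns were matched to samples by the description labels.

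A gene was tested if it reached 3.32 (linear 10) in 3 or more libraries, which left 16394. Groups were compared with limma 3.58.1 (R 4.3.3; mean-variance trend, no block, two-sided, Benjamini-Hochberg over all tested genes, threshold 0.05), after it was tested on simulated data. Lengths and GC shares came from GENCODE M21 (GRCm38) by symbol, for 98.7% of tested genes and all members (Ndufb1 as Ndufb1-ps). The level per kb is the log2 value minus log2 of the length in kb.

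Members and lists were chosen with earlier results of these data known. Values by library are given for 28 genes, less 1 that is not reported here. In each class these are the 3 largest and 2 smallest differences and the 2 highest and 2 lowest levels per kb. Members without overlap and with unadjusted p under 0.05 both with and without EFNA3 replicate 1 were added. Other genes given with values (single markers, left-out copies, mitochondrial Nd genes, Acad9, regulators, neighbours) were picked after values were seen. Alternatives covered the pseudocount, filter, scaling, variance model, library weights, replicate blocks, length and GC, and each library left out.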

Additional observations from a re-analysis of the deposited data

How the results depend on the processing

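The count of members with a limma adjusted p under 0.05 was 0 under all 16 alternatives. With each library left out in turn, the median difference ran from 0.12 to 0.36 over all members, from 0.07 to 0.32 for core-named, 0.14 to 0.39 for accessory-named and 0.08 to 0.22 for assembly factor genes, lowest without EFNA3 replicate 1. The count higher with EFNA3 ran from 44 to 49, that with no overlap from 21 to 33 and that at an unadjusted limma p under 0.05 from 4 to 29, lowest without control replicate 3. That last count was 5 with no mean-variance trend and 7 with the length and GC correction and EFNA3 replicate 1 left out. Accessory-named genes had the highest class median in 17 of 17 fits and core-named genes stood above assembly factors in 16, the exception being the fit without EFNA3 replicate 1. These fits are not separate checks. Leaving out the filter or the mean-variance trend, centring the libraries or blocking by titles left the class medians at 0.21, 0.31 and 0.18, as in the main fit. The class levels (core-named, accessory-named, assembly factor) were 10.71, 10.45 and 8.57 over the median annotated transcript, 10.18, 9.98 and 8.08 not divided by length, 10.07, 10.15 and 7.46 with all 6 libraries and 9.98, 10.29 and 7.58 over the longest principal transcript.

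The labels share replicate numbers, but same-numbered libraries did not deviate together: the correlation of deviations from the group means over tested genes was -0.11, 0.03 and -0.32 for title numbers 1, 2 and 3, and 1 of the 3 EFNA3 libraries, replicate 2, correlated best with the control of its own title number. With a replicate block by the titles the unadjusted count was 20 (3.32% of all tested genes). With one by description numbers it was 17 (2.56%), with a median difference of 0.34. In that fit control replicate 2 and EFNA3 replicate 2 share a number with no other library. Its differences therefore rest on replicates 1 and 3 of each group alone and do not use all 6 libraries. With either block 0 members passed at a limma adjusted p under 0.05.

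Of 445 values of named genes under an alternative, 427 kept their direction. Among these are settings that leave a difference unchanged, such as no filter or no mean-variance trend. The opposite direction was found for 6 genes. Ndufaf1 stood at -0.061 with library weights, -0.021 without control replicate 2, -0.048 without EFNA3 replicate 1, -0.032 with the length and GC correction and -0.078 with both of these. Ndufa4l2 stood at -0.0052 with library weights, -0.11 without control replicate 3, -0.0033 with the correction and -0.035 with the correction and EFNA3 replicate 1 left out. Ndufb4c stood at -0.013 with the block by descriptions, -0.19 without EFNA3 replicate 1, -0.022 with the correction and -0.27 with both. Ndufaf5 was higher at 0.028, 0.019 and 0.0055 without control replicate 3, EFNA3 replicate 2 and EFNA3 replicate 3. Ndufv1 and Ndufv3 stood at -0.011 and -0.0033 with the correction and EFNA3 replicate 1 left out. With each library left out in turn, Ndufaf1 ran up to 0.13, Ndufa4l2 up to 0.31, Ndufb4c up to 0.56 and Ndufaf5 down to -0.10. The cause was not tested. With depth unknown, what it limits cannot be given.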
